A study of Mus musculus with 6 samples.

Results

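RNase P, RNase MRP, 7SK and telomerase RNAs were followed in RNA-sequencing libraries of mouse dental pulp. The members were chosen by gene symbol as Rmrp, Rpph1, Rn7sk, Rprl1, Rprl2, Rprl3 and Terc, which are 7 symbols and 8 rows of the 53342 genes in the table, since Rprl1 has 2 annotated models. The difference between genotypes in these libraries was already known when the symbols were chosen, so their values are given as a description and carry no test. Pulp came from 3 WT mice, numbered 2, 4 and 5, and 3 Mmp13-/- mice, numbered 1, 2 and 6, all C57BL/6 and 3 months old. The knockout is homozygous and in every cell, and both genotypes were otherwise untreated as far as the labels say. Titles of the WT samples name molars and those of the Mmp13-/- samples name no tooth, although the protocol in the labels gives molars for both genotypes. The labels name a column kit, while incisors and TRIzol extraction are given in the study's methods.

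RNase P cuts the leader from precursor tRNA, and Rpph1 is its catalytic RNA. RNase MRP is built around Rmrp, shares most of its proteins with RNase P and processes ribosomal RNA precursors. 7SK RNA, encoded by Rn7sk, holds the kinase P-TEFb in an inactive particle and so restrains elongation by RNA polymerase II. Terc carries the template with which telomerase extends chromosome ends. Apart from Terc, a product of RNA polymerase II, such RNAs are made by RNA polymerase III from promoters that lie outside the transcribed sequence, and most have no poly(A) tail. Rprl1, Rprl2 and Rprl3 are annotated as RNase P RNA-like genes.

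The RNase P sequences are shown because reads of Rpph1 and its copies can be told apart only where these differ. All are from the GENCODE M21 transcripts of GRCm38 and are written 5′ to 3′. Bases 1 to 257 of Rpph1, at chr14:50807511-50807767 on the minus strand, are given first, with both units of a tandem repeat in capitals. In each copy the capitals mark the bases that differ from Rpph1. The copies are Rprl3 at chr8:3803123-3803358 on the minus strand, Rprl2 at chr3:22251374-22251609 on the plus strand and Rprl1 at chr6:69326935-69327170 on the minus strand.
Rpph1: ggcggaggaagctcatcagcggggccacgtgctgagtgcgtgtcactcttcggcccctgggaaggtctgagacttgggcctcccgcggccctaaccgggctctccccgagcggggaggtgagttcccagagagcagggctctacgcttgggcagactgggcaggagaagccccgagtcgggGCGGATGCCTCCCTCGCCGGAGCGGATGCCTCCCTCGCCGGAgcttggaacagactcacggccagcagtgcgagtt
Rprl3: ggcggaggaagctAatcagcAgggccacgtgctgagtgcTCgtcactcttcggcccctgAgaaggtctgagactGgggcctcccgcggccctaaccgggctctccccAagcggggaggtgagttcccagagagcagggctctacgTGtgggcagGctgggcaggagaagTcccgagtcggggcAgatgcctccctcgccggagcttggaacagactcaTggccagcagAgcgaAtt
Rprl2: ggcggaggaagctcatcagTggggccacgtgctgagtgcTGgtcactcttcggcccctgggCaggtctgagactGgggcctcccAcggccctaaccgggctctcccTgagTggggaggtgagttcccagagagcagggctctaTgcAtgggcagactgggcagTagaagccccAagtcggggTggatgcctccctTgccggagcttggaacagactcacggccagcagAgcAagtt
Rprl1: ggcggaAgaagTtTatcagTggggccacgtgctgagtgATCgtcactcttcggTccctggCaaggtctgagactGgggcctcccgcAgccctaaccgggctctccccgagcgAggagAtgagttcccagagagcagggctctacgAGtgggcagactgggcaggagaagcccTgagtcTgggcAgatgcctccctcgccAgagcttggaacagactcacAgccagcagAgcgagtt

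Over these 236 aligned bases Rprl3 differed from Rpph1 at 15 bases (93.6% identity), Rprl2 at 16 (93.2%) and Rprl1 at 21 (91.1%). All copies lacked the same 21 bases, which are 1 unit of the repeat at bases 182 to 223 of Rpph1. The longest stretch identical to Rpph1 was 37 bases in Rprl3, 32 in Rprl2 and 27 in Rprl1. Beyond this stretch the copies go on with bases that do not align with Rpph1, 54 in Rprl3 and Rprl2 and 91 in Rprl1. The first 54 of these were identical in Rprl3 and Rprl2 at 54 of 54 bases and differed from that of Rprl1 at 1, and the capitals in the Rprl3 tail, at chr8:3803069-3803122, mark the 53 bases that all copies share.
Rprl3 tail: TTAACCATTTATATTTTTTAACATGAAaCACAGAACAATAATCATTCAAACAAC

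Levels are normalized read counts in CPM, a scale that sets every library to 1 common total, with TMM-scaled totals as the divisors. Totals ranged from 28442936 to 29980236 counts in WT and from 21561420 to 26547121 in Mmp13-/-. A single row, Gm10800, took 3.89, 6.88 and 30.5% of Mmp13-/- libraries 1, 2 and 6 and at most 0.0277% of a WT library. Scaling factors without the 10 most abundant genes by mean share gave log2 fold changes of 2.16 for Rn7sk, 0.78 for Rpph1, 1.08 for Rmrp and 1.08 for Terc. The part of Gm10800 in the results was not otherwise tested. Without Mmp13-/- replicate 6 the log2 fold changes were 2.27 for Rn7sk, 0.61 for Rpph1, 1.11 for Rmrp and 1.29 for Terc. Mmp13 itself stood at 36.9, 39.2 and 30.2 CPM in WT samples 2, 4 and 5 and at 0.323, 1.10 and 2.34 CPM in Mmp13-/- samples 1, 2 and 6, in the direction of the labels. Calling a gene required over 2-fold change together with an adjusted p under 0.05 in edgeR's quasi-likelihood test. Of 24534 genes tested, 30.1% were called, 20.4% higher and 9.68% lower in Mmp13-/-. Of the 8 rows 6 passed the filter on low counts, and 5 of these were over the thresholds, all higher in Mmp13-/-. Rprl2 and Rprl3 passed the filter through the Mmp13-/- samples alone, and nothing is read from this count. The genotypes did not overlap in 7 of the 8 rows, the untested Rprl1 rows included, beside 60.9% of all genes tested. Without WT replicate 4 or without Mmp13-/- replicate 2 the members called were 3.

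**Figure D1:**
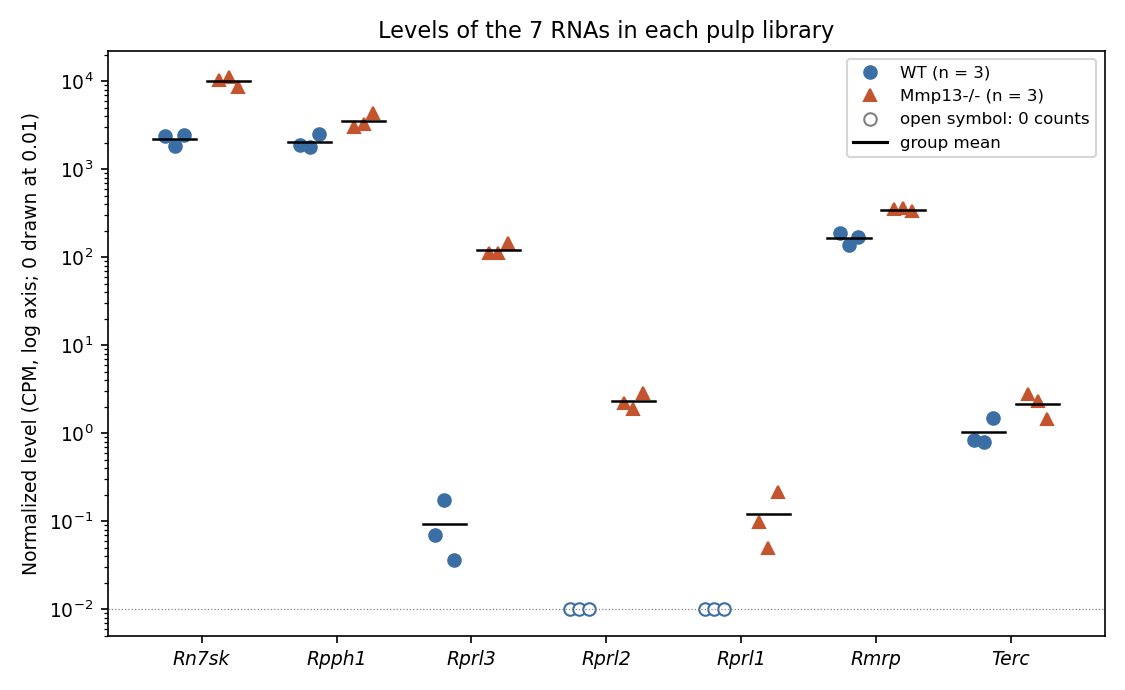
Normalized level (CPM, log axis) of the 7 RNAs in each of 3 WT and 3 Mmp13-/- libraries, with group means as lines and samples at 0 counts as open symbols at the bottom of the axis. Rn7sk and Rpph1 lie above 1000 CPM in every library, Rprl3 and Rprl2 are near or at 0 in WT only, and the genotypes overlap for Terc.

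Rn7sk, the 7SK RNA, had levels of 2383, 1839 and 2481 CPM in WT, compared with 10290, 11134 and 8592 CPM in the Mmp13-/- libraries. Every Mmp13-/- library was above every WT library. Means (± SD, n = 3 each) were 2234 ± 346 CPM for WT and 10005 ± 1294 CPM for Mmp13-/-, and the fitted difference on the log2 scale was 2.16 (standard error 0.28). It ranked 27, 38 and 31 among all genes by count in the WT libraries, compared with 6, 7 and 9 in the Mmp13-/- ones. It took 0.230, 0.180 and 0.239% of each WT library, compared with 1.23, 1.26 and 0.688% of each Mmp13-/- library.

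The first 300 bases of Rn7sk, at chr9:78175334-78175633 on the minus strand, are shown because annotated copies repeat parts of Rn7sk. Capitals mark the 241 bases that are identical in the copy Gm24447.
Rn7sk: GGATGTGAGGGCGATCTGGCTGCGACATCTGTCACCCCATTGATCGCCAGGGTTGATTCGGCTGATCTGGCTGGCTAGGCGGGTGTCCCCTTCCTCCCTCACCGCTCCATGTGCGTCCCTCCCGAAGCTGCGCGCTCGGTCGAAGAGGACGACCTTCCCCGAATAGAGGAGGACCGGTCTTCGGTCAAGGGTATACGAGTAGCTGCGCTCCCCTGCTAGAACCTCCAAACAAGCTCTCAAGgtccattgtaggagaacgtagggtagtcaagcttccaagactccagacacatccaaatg
Rn7sk has 34 annotated copies in the table at over 80% identity over at least 50% of its length. Together they held 30.6, 30.1 and 30.4% of the counts of Rn7sk and copies in WT and 29.9, 28.9 and 30.04% in Mmp13-/-. Gm24447 alone stood at 23.0, 22.4 and 22.8% of the Rn7sk count in WT and at 22.5, 21.4 and 22.6% in Mmp13-/-. These shares were nearly level across the libraries, and reads of the identical bases cannot be assigned to 1 gene. With all 35 rows summed the log2 fold change was 2.15 with a standard error of 0.30.

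Rpph1, the RNase P RNA, had levels of 1879, 1791 and 2528 CPM in WT, compared with 3049, 3258 and 4328 CPM in the Mmp13-/- libraries. The genotypes did not overlap, and sample 5 was the highest of WT and sample 6 of Mmp13-/-. Means (± SD, n = 3 each) were 2066 ± 402 CPM for WT and 3545 ± 686 CPM for Mmp13-/-, and the fitted difference on the log2 scale was 0.78 (standard error 0.26), which is under 2-fold. Per kilobase the single rows of Rpph1 and Rn7sk were at like levels in WT, 6477 ± 1261 and 6750 ± 1044 CPM per kilobase (SD, n = 3). In Mmp13-/- they were at 11113 ± 2151 and 30227 ± 3910. These values leave out the copies of Rn7sk. With its copies Rn7sk stood at 3210 ± 504 CPM in WT and 14202 ± 1734 CPM in Mmp13-/-, so the likeness in WT depends on how shared reads were split.

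Rprl3 had 2, 5 and 1 counts in WT and 3485, 3395 and 2483 counts in Mmp13-/-. Over normalized depth, the summed 9363 counts of Mmp13-/- against 8 of WT gave a ratio of 1271, with an exact 95% interval of 645 to 2944 that covers counting error only. The fitted log2 fold change was 10.29, and 11.01 without WT replicate 4, which holds 5 of the 8 WT counts. Rprl2 had 0 counts in each WT library and 69.3, 56.0 and 49.3 in Mmp13-/-, and was at least 21.9-fold higher than a floor of 3 counts per WT library. Rprl1 also had 0 counts in each WT library and 3.05, 1.5 and 3.66 in Mmp13-/-, and its second model had 3.05, 0.5 and 1.66. Rprl1 is near the floor in both genotypes and no fold is given. The 3 copies had counts in the order Rprl3, Rprl2 and Rprl1 in every Mmp13-/- library. Identity to Rpph1 over the 236 aligned bases had the same order. An end-to-end alignment gave another, with 90.2% for Rprl1, 88.2% for Rprl3 and 87.8% for Rprl2. The part of identity in these counts was not tested.

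Rprl3 made up 3.50, 3.36 and 3.21% of the counts of Rpph1 and its copies in Mmp13-/-, and at most 0.00960% in WT. Rprl2 made up 0.0695, 0.0555 and 0.0639% in Mmp13-/-. These shares varied little among the Mmp13-/- libraries. Summed over Rpph1 and its copies, the RNase P RNA averaged 2066 ± 402 CPM for WT and 3670 ± 705 CPM for Mmp13-/- (SD, n = 3 each), a difference of 0.83 on the log2 scale (standard error 0.26). A background of reads was estimated from 1728 odorant and vomeronasal receptor genes, which summed to 27.2 to 47.9 CPM (on unscaled totals) in WT and 350 to 1281 in Mmp13-/-. Scaled to the length of Rprl1 it came to 0.534, 0.615 and 1.60 counts in Mmp13-/- samples 1, 2 and 6, and for Rprl3 to 0.474, 0.545 and 1.42. Its part in the counts of Rprl1 was not tested.

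**Figure D2:**
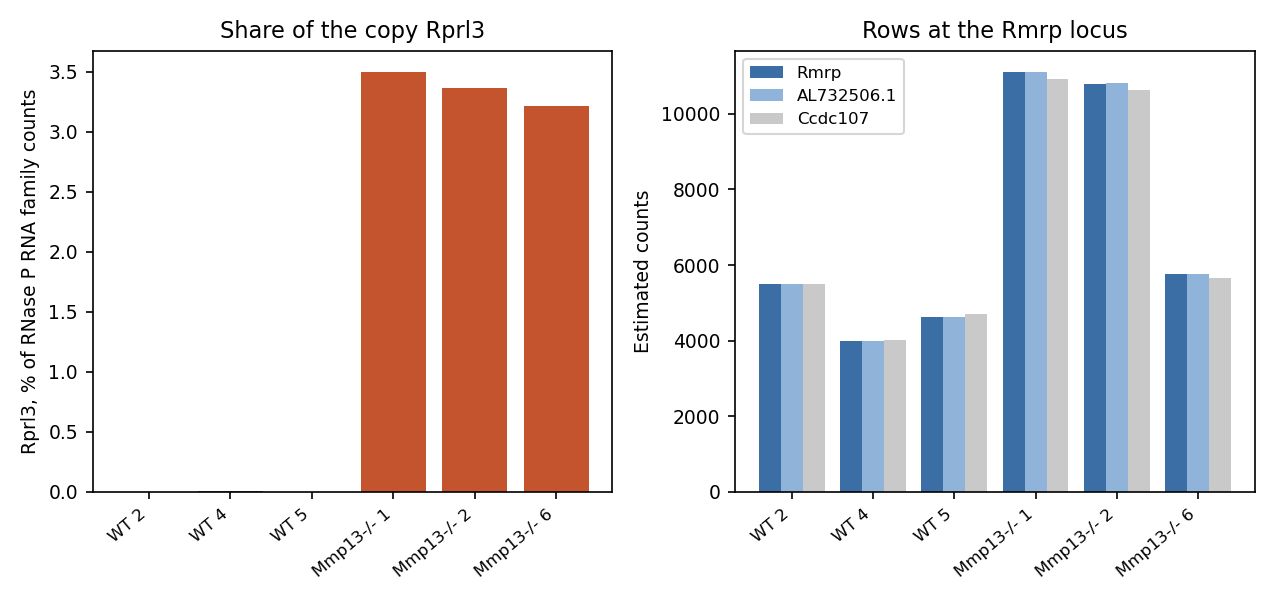
Left, counts of Rprl3 as a percentage of all counts of Rpph1, Rprl1, Rprl2 and Rprl3 in each library. Right, estimated counts of the 3 annotated rows at the Rmrp locus in each library; the bars of a library are of nearly equal height, and the Rprl3 share is 3.21 to 3.50% in Mmp13-/- and at most 0.00960% in WT.

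Rmrp, the RNase MRP RNA, had levels of 190, 137 and 169 CPM in WT, compared with 352, 361 and 333 CPM in the Mmp13-/- libraries. The genotypes did not overlap, and the Mmp13-/- libraries lay close together. Means (± SD, n = 3 each) were 165 ± 26.6 CPM for WT and 349 ± 13.9 CPM for Mmp13-/-, and the fitted difference on the log2 scale was 1.08 (standard error 0.18). Its sequence at chr4:43492788-43493058 on the minus strand is shown because 124 bases, in capitals, lie in an exon of Ccdc107 on the opposite strand.
Rmrp: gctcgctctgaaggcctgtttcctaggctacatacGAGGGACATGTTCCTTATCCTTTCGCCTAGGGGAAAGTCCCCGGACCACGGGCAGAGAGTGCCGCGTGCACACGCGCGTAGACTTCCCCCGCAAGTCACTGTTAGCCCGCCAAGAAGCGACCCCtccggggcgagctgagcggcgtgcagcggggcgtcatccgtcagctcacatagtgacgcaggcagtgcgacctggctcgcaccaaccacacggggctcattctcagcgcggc
The locus has a further annotated model, AL732506.1, and this row held 1.0007 to 1.0023 times the count of Rmrp in the 6 libraries. The row of Ccdc107, a protein-coding gene, held 0.982 to 1.02 times that count. Whether the counting used strand is not given in the sources used here, so reads of Rmrp and of Ccdc107 cannot be told apart. With the 3 rows summed, the log2 fold change was 1.07 with a standard error of 0.20. Since the rows hold near-equal counts, this sum had to lie near the value of Rmrp and does not separate Rmrp from Ccdc107.

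Terc, the telomerase RNA, was scarce, at 0.829, 0.791 and 1.49 CPM in WT and 2.77, 2.32 and 1.44 CPM in Mmp13-/-. Mmp13-/- sample 6 lay below WT sample 5, so the genotypes overlapped in this row. Terc has 2 annotated copies in the table. They held 29.4, 14.8 and 3.35% of the counts of Terc and copies in WT and 6.37, 5.41 and 25.1% in Mmp13-/-. No fit was made with them summed, and the overlap is stated for the Terc row alone. Means of the Terc row (± SD, n = 3 each) were 1.04 ± 0.393 CPM for WT and 2.18 ± 0.674 CPM for Mmp13-/-. The fitted difference on the log2 scale was 1.08 (standard error 0.38). It rested on 23.0 to 40.8 counts per library in WT and on 24.9 to 87.2 in Mmp13-/-. Per kilobase the order of mean levels in WT was Rn7sk, Rpph1, Rmrp, Terc and Rprl3. The first pair differed by less than the spread between samples. Each symbol was taken by its single row here, without the rows that share reads with Rn7sk or Rmrp. In Mmp13-/- the order was Rn7sk, Rpph1, Rmrp, Rprl3, Rprl2 and Terc, and the ranges of Rprl2 and Terc overlapped by sample, at 6.45 to 9.85 and 3.41 to 6.54 CPM per kilobase.

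GC content moved with genotype across the whole table. The median log2 fold change was 0.81 for genes under 45% GC, whereas it was -0.73 for genes from 55 to 68%. The members hold 52.0 to 67.1% GC. After a correction of each library for GC content the log2 fold changes were 3.08 for Rn7sk, 1.97 for Rpph1, 2.25 for Rmrp and 2.25 for Terc. The correction raised all 4 folds by over 1.5 times. Rmrp and Terc lie close to the 2-fold limit: without WT replicate 4 they gave 0.92 and 0.87.

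**Figure D3:**
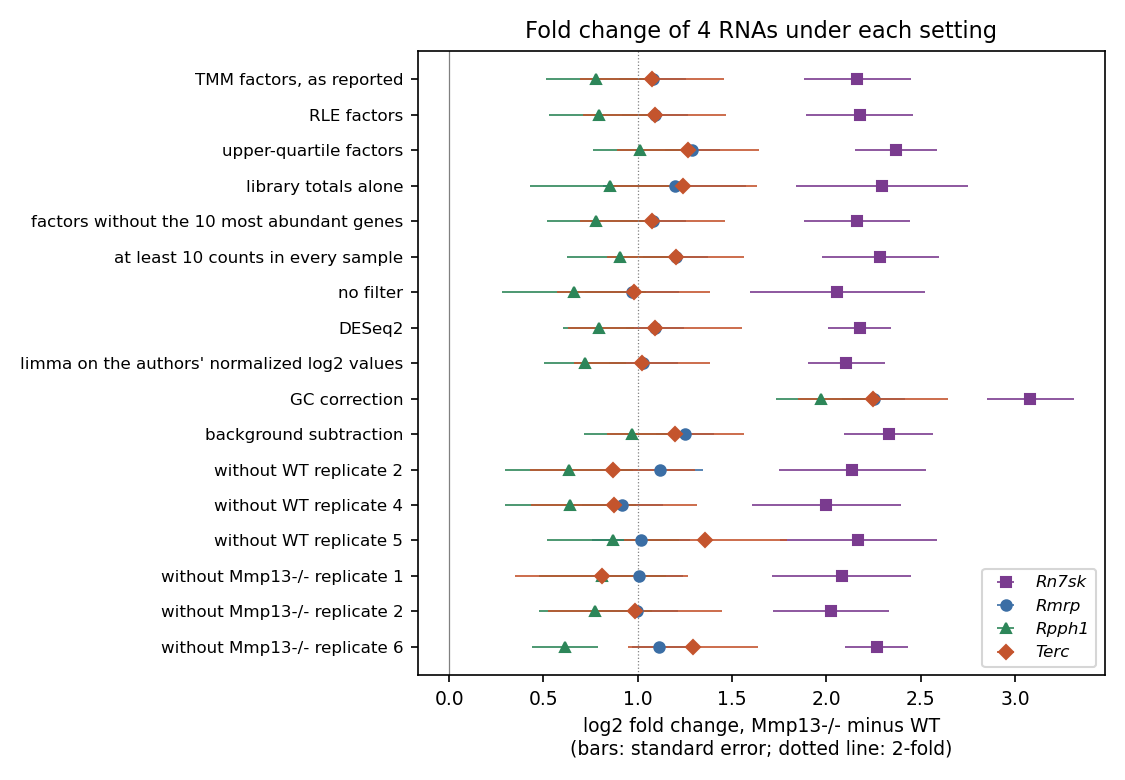
Log2 fold change (Mmp13-/- minus WT, with standard errors) of Rn7sk, Rmrp, Rpph1 and Terc under each alternative, 1 line per alternative. Every value is above 0; the GC correction gives 1.97 to 3.08, the highest value for each of the 4.

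Proteins of the same particles and the polymerase III machinery were tested in 6 lists, which together hold 58 genes, all tested. Of these 10 rose and 3 fell in Mmp13-/- over 2-fold, beside 20.4% and 9.68% of all genes. With GC correction 5 rose and 0 fell. Without Mmp13-/- replicate 1, 6 rose and 5 fell. Falls numbered 6 without WT replicate 2, 6 without WT replicate 5 and 7 without Mmp13-/- replicate 2. After GC correction the list medians, in the order used below, were 0.79, -0.01, 0.31, -0.05, 0.00052 and 0.07, so the sign of 4 of them turned.

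Of the 11 RNase P and RNase MRP proteins, 5 rose and 0 fell in edgeR (also 0 in DESeq2), and at an unadjusted p under 0.05, 2 were lower. The median log2 fold change was 0.15, beside 0.10 over all genes tested. Pop4, a subunit of both enzymes, stood at 8.44, 5.42 and 4.76 CPM in WT and 16.02, 16.4 and 11.9 CPM in Mmp13-/- (log2 fold change 1.25, edgeR adjusted p = 0.00173). Rpp30 had levels of 1.63, 1.95 and 1.75 CPM in WT, compared with 4.75, 3.73 and 3.43 CPM in the Mmp13-/- libraries (log2 fold change 1.16, edgeR adjusted p = 0.00323). Neither gene overlapped between genotypes. Rpp38 had a log2 fold change of 1.63 (edgeR adjusted p = 0.0085) on WT levels of 1.09 CPM or less. Pop1, the largest subunit, was at 6.58 to 7.63 CPM in WT and 6.30 to 7.57 in Mmp13-/- (log2 fold change -0.01, edgeR adjusted p = 0.952). Rpp25 and Rpp40, the others called, are named after their values were seen. With GC correction Rpp30 had 0.79 and 3 genes of the list were called, as without WT replicate 5 or without Mmp13-/- replicate 1.

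None of the 7 proteins of the 7SK particle and P-TEFb passed both thresholds in edgeR (0 in DESeq2, and 0 at an unadjusted p under 0.05 with over 2-fold). Other settings gave calls, with 1 higher under upper-quartile factors and 2 lower with no filter. Leaving out WT replicate 2, WT replicate 5 or Mmp13-/- replicate 1 gave 1 lower each. At any fold, 2 passed as higher and 4 as lower, where 51.6% of all genes passed, and the median log2 fold change was -0.74. Hexim1, which binds 7SK and inhibits P-TEFb, stood at 53.8, 50.6 and 53.3 CPM in WT and 32.3, 27.9 and 23.8 CPM in Mmp13-/- (log2 fold change -0.90, edgeR adjusted p = 8.2e-04). Mepce, which caps 7SK, had a log2 fold change of -0.74 (edgeR adjusted p = 0.00389), and 0.30 after GC correction. Larp7, which protects the 3′ end of 7SK, had 0.73 (edgeR adjusted p = 0.01996). Hexim1 and Mepce were lower and Larp7 was higher, each under 2-fold.

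Of the 9 telomerase proteins 1 rose, Nop10, from 6.11, 5.31 and 6.57 CPM in WT to 16.5, 12.6 and 12.8 CPM in Mmp13-/- (log2 fold change 1.22, edgeR adjusted p = 4.4e-04). The median of the list was -0.30. With GC correction 2 rose and 0 fell. With no filter, with limma, or without WT replicate 2, WT replicate 5, Mmp13-/- replicate 2 or Mmp13-/- replicate 6, 1 fell. Tert, the reverse transcriptase, was at 6.24, 6.94 and 6.29 CPM in WT and 4.995, 4.80 and 6.16 CPM in Mmp13-/- (log2 fold change -0.30, edgeR adjusted p = 0.195). After GC correction its log2 fold change was 0.31. Dkc1, which binds Terc, had 0.44 (edgeR adjusted p = 0.0607).

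In the polymerase III lists, Snapc5, Polr3k, Gtf3c3 and Ssb rose and Snapc2, Polr3gl and Maf1 fell. With GC correction 0 genes of these 3 lists passed the thresholds in either direction in edgeR, and Ssb had 0.79, Gtf3c3 0.67, Snapc5 0.71, Polr3k 0.52, Polr3gl -0.68, Maf1 -0.49 and Snapc2 -0.10. Ssb, the La protein that binds the 3′ ends of polymerase III transcripts, had a log2 fold change of 1.80 (edgeR adjusted p = 7.9e-05), at 10.7 to 15.6 CPM in WT and 42.0 to 49.4 CPM in Mmp13-/-. Maf1, a repressor of polymerase III, had -1.28 (edgeR adjusted p = 2.1e-04), at 81.8 to 92.8 CPM in WT and 29.0 to 39.2 CPM in Mmp13-/-. Of 10 genes for gene-external promoters 1 rose and 1 fell, of 11 core subunits 1 and 1, and of 10 regulators 2 and 1, with medians of 0.19, -0.37 and -0.48. Snapc2 had -1.03 (edgeR adjusted p = 8.2e-04).

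**Figure D4:**
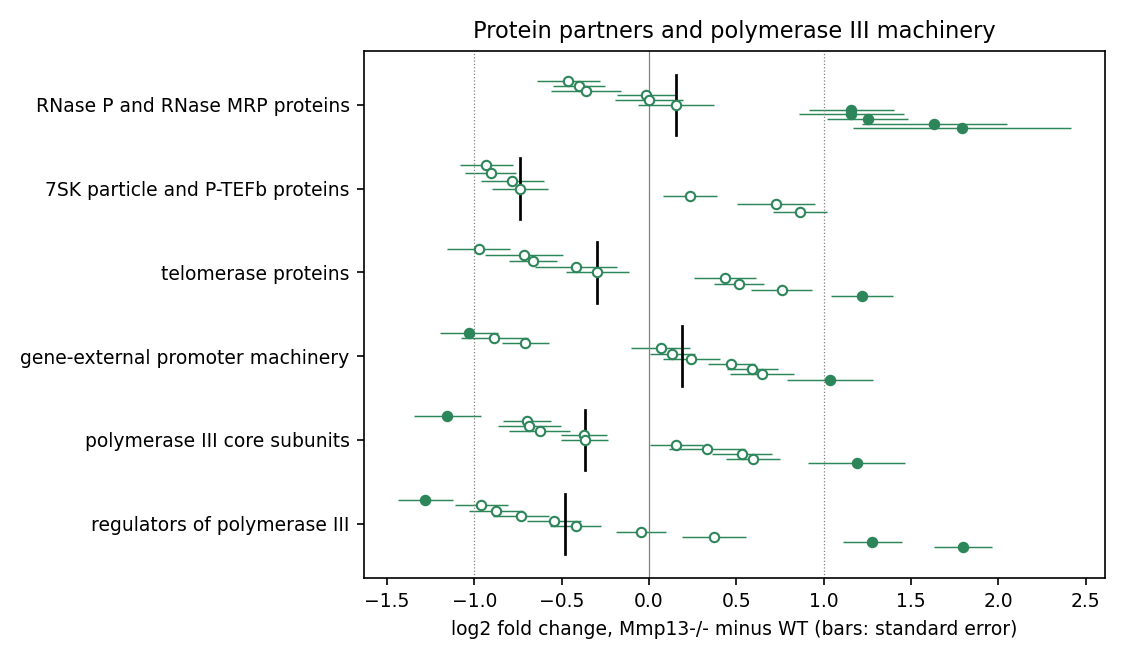
Log2 fold change (Mmp13-/- minus WT, bars standard error) of 58 protein genes in 6 lists, with called genes as filled symbols and the list median as a vertical line. Called genes are 10 on the right and 3 on the left, and the 7SK particle list has none.

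Other structural RNAs, and the messenger RNAs of replication-dependent histones, were compared by counts, beside the 20.4% of all genes called higher. With at least 10 counts in every sample 6 small nuclear and 8 small nucleolar RNAs were called higher, fewer than in the counts that follow. Those counts and medians use the filter by genotype, which admits a gene on the counts of a single genotype. RNAs scarce in WT could thus enter through the Mmp13-/- libraries alone. Of 22 small nuclear RNAs 11 were tested and 11 rose, with a median log2 fold change of 4.11. Of 149 small nucleolar RNAs 26 were tested and 14 rose, with a median of 1.49. Of 70 replication-dependent histone genes 69 were tested and 48 rose, with a median of 1.498. None of the 3 lists had a called fall in edgeR or in DESeq2, and over the 4 RNA lists 2 genes were lower at an unadjusted p under 0.05. Rny3, a Y RNA, stood at 0.207, 0.254 and 0.196 CPM in WT and 10.2, 7.40 and 11.0 CPM in Mmp13-/- (log2 fold change 5.47, edgeR adjusted p = 3.9e-06). Rny1 had 3.45 (edgeR adjusted p = 1.4e-04) and the vault RNA Vaultrc5 2.69 (edgeR adjusted p = 0.00160). Rny3, Rny1 and Vaultrc5 passed the filter through the Mmp13-/- libraries, and with at least 10 counts in every sample 0 genes of the list were called. The 7SL rows Rn7s1 and Rn7s2, which are near-identical and share reads, had 0.35 each with a standard error of 0.34 (edgeR adjusted p = 0.417), and their genotypes overlapped. With GC correction both had 1.497 and were called.

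Among protein-coding neighbours, Ccnb1ip1 overlaps Rpph1 by 233 exon bases on the same strand. It had 0 counts in each WT library and 38.2, 10.4 and 25.4 in Mmp13-/-. It passed the filter through the Mmp13-/- libraries alone and was not tested with at least 10 counts in every sample or with background subtraction. Parp2, named after its values were seen, begins 74 bases from Rpph1 on the other strand and had a log2 fold change of 0.29 (edgeR adjusted p = 0.245). Ick, 3196 bases from Rn7sk, had -0.25 (edgeR adjusted p = 0.178). Tbl1xr1, 34780 bases from Rprl2, had 0.47 (edgeR adjusted p = 0.0283), and -0.074 with GC correction. Rpia, the nearest to Rprl1 though 1438550 bases away, had 0.10 (edgeR adjusted p = 0.640). BC107364, 18929 bases from Terc, and Cd209e, 44607 bases from Rprl3, were too low in counts to be tested. The next genes, named after their values were seen, were Hfe2 near Terc at -2.31 (edgeR adjusted p = 4.0e-04) and Cd209a near Rprl3 at 2.01 (edgeR adjusted p = 0.0080).

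The genes whose centred log2 profile over the 6 libraries lay nearest were AL732506.1 and Ccdc107 for Rmrp, at distances of 0.0018 and 0.050, and Gm24447 and Gm26315 for Rn7sk, at 0.082 and 0.11. AL732506.1 and Ccdc107 overlap Rmrp, and Gm24447 and Gm26315 are annotated copies of Rn7sk. For Rpph1 they were Gm19817 and Ccdc34os at 0.15 each, with 0.611 and 0.0584 CPM in WT sample 2, levels at which the pseudocount of 0.5 CPM shapes the profile.

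Cell type markers moved with genotype, and their calls stand beside 20.4% of all genes called higher and 9.68% called lower. Of 7 neutrophil and marrow myeloid markers 6 rose, and their summed level was 77.5 to 163 CPM in WT and 556 to 1393 in Mmp13-/-. Of 6 erythroid markers 4 rose, at 864 to 1383 and 2039 to 3812 CPM, and of 5 B cell markers 5 rose, at 6.19 to 12.2 and 30.1 to 40.1 CPM. Of 6 skeletal muscle markers 5 fell, at 40873 to 48501 and 7440 to 17987 CPM, and of 6 odontoblast and pulp markers 2 rose and 3 fell, at 54581 to 61263 and 16453 to 21902 CPM. Of 4 ameloblast markers 0 were called in edgeR (0 at an unadjusted p under 0.05 with over 2-fold), at 1000.5 to 4031 and 3097 to 4298 CPM. With GC correction 1 odontoblast and pulp marker rose and 1 fell, and the list median moved from -0.71 to -0.18. Falls in skeletal muscle were then 4. Rises were then 7 for neutrophil and marrow myeloid, 6 for erythroid, 5 for B cell and 0 for ameloblast markers. No defining marker was at 0 in all libraries. The part of these cells in the RNA levels was not tested, and fewer cells of a type and less RNA per cell cannot be told apart in bulk tissue.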

How the data were processed

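RNA of dental pulp was sequenced from 3 WT and 3 Mmp13-/- mice, grouped by the genotype in their labels. The table holds estimated counts per gene, which the authors obtained in Strand NGS from aligned reads. It also holds normalized log2 values that the authors made from those counts. The submitters' processing notes name mm10 and DESeq. The aligner, the annotation release and the strand setting are not given in the sources used here.

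Rounded estimated counts entered edgeR 4.0.16 in R 4.3.3 (quasi-likelihood test, TMM factors, filterByExpr, Benjamini-Hochberg adjustment over all 24534 genes tested). A call required an adjusted p under 0.05 and over 2-fold. Whether animals were littermates is not stated. The p-values take the samples as independent, and a part of litter in the genotype difference could not be tested. Positions and sequences came from GENCODE M21 on GRCm38, matched for 99.8% of genes, and alignments from Biopython 1.88. Copies were found with blastn. Alternatives were RLE, upper-quartile and no factors, factors without the 10 most abundant genes, 2 other filters, DESeq2 1.42.0, limma 3.58.1, GC offsets (loess span 0.4), background subtraction and each sample left out. edgeR, DESeq2, limma and the GC offsets were run on counts simulated from WT means with the same dispersion for every gene. No simulated library held a share like that of Gm10800 in Mmp13-/-, so the fits were not tested under it. Summing of rows that share reads was chosen after seeing the data.

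The members and lists were chosen with earlier results of these data known. Genes named from each protein list were the called ones, up to 3 in each direction by adjusted p, and Tert, Larp7, Hexim1, Mepce, Dkc1, Pop1 and Rpp30 in any case. Every RNA of the Y, vault and 7SL list, the nearest protein-coding gene of each member and the 2 genes nearest in profile to Rmrp, Rpph1 and Rn7sk were named too. Satellite genes could not be left out of the factors, as planned, because no list of them was used here. Promoters of the members were not analysed here. Depth was 21561420 to 29980236 counts, and counting intervals cover counting error only.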

Additional observations from a re-analysis of the deposited data

How the results depend on the processing

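The log2 fold change of Rn7sk ranged from 1.999 to 3.08 over the alternatives. Rprl2 and Rprl3 gave no value with at least 10 counts in every sample. No paired analysis was possible because the genotypes share only the replicate number 2. The number of genes called was 4666 with at least 10 counts in every sample, 14325 with no filter and 4753 with GC correction, and the split moved from 67.8% higher to 81.4% with upper-quartile factors, 77.2% with totals alone, 78.6% with no filter and 84.3% with GC correction. The median of all genes was 0.10 and moved to 0.32 with upper-quartile factors, 0.21 with totals alone and 0.22 with GC correction.

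Of the members 3 were called with at least 10 counts in every sample and 3 with no filter, and 3 to 5 when a sample was left out, and 6 with upper-quartile factors or GC correction, where Rpph1 had 1.01 and 1.97. From here on, passing means an adjusted p under 0.05 at any fold, given as a description. For the members and the family sum it shows only how the fit moved with the setting. It is no test of them, since they were chosen with the genotype difference known. Terc no longer passed with limma (1.02). With a sample left out it ranged from 0.81 to 1.36. It did not pass without WT replicate 2 or 4 or Mmp13-/- replicate 1 or 2. Rpph1, under 2-fold and so not called with TMM factors (0.78), no longer passed with totals alone (0.85) or no filter (0.66). With a sample left out it ranged from 0.61 to 0.87 and passed only without Mmp13-/- replicate 6. The family sum gave 0.90 with totals alone and 0.71 with no filter, and passed in neither. With a sample left out it gave 0.66 to 0.92 and passed only without Mmp13-/- replicate 2 or 6. Of the protein genes 5 rose with GC correction and 6 to 9 with a sample left out. Falls numbered 1 with upper-quartile factors, 7 with no filter, 5 with limma, 0 with GC correction and 2 to 7 with a sample left out. Falls among the other RNAs numbered 1 with totals alone, 1 with at least 10 counts in every sample, 1 with no filter, 1 with limma and 0 to 3 with a sample left out.

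Tbl1xr1 no longer passed with totals alone (0.60), no filter (0.36) or limma (0.40), was -0.074 with GC correction, and ranged from 0.32 to 0.57, passing only without Mmp13-/- replicate 6 among the leave-outs. Rpia was -0.0030 with no filter and ranged from -0.050 to 0.25, with -0.030 without Mmp13-/- replicate 2. Pop1 turned to 0.20 with upper-quartile factors, 0.087 with totals alone, 0.11 with at least 10 counts in every sample, 0.37 with GC correction and 0.057 with background subtraction. Mepce turned to 0.30 and Tert to 0.31 with GC correction. The cause of these changes was not tested. Counts limit Rprl1, Rprl2, Rprl3 and Terc.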
